A study of Mus musculus with 9 samples.

Results

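The subject was the set of ATAC-seq peaks that lie in gene deserts, the long stretches of a chromosome with no protein-coding gene. Peaks were taken by position alone, as the autosomal peaks more than 100 kb from the body of any protein-coding gene or immunoglobulin constant gene in the RefSeq annotation of mouse build mm10 (GRCm38.p6). Of the 61540 peaks, 60158 were autosomal and 2297 (3.73% of all) met this rule. They were measured in 9 samples of age-associated B cells, a B cell population that accumulates with age and in lupus, sorted by flow cytometry from spleens of 20-week-old chimeric mice. The strain was MRL/lpr throughout, which carries the lpr mutation of Fas and develops a disease like systemic lupus erythematosus, and each chimera had received marrow of 3 genotypes mixed. The donor cells lacked Tlr9 (KO, TLR9-/-), carried Tlr9 with the P915H change on both alleles, described by the submitters as unable to signal (P915H), or had intact Tlr9 (WT), with 3 samples each. Neither a host mouse nor a pairing of samples is given in the labels. The spread behind the p-values is thus that between these 9 samples, part of which may be technical rather than between mice.

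ATAC-seq reads out where a transposase can enter the DNA, and a peak marks an open stretch such as a promoter, an enhancer or an insulator. Peaks far from coding genes are mostly of the distal kind, and deserts beside genes of development and lymphocyte identity are known to hold enhancers that act over long distances. Bordering genes are named here as addresses, since position alone leaves a peak's target unknown. Tlr9 itself is an endosomal receptor for CpG-rich DNA and is expressed by B cells.

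The 2297 peaks sat in 452 deserts on 19 chromosomes, a desert being the gap between the bordering coding genes on either side. Their median distance to the nearest such gene was 183851 bp, 271 lay over 500 kb away, and the farthest lay 1992704 bp away. They were clustered, since 64 deserts with 10 or more peaks held 1147 of them and 155 deserts held 1 each. The name gene desert holds for coding genes only. Of the 2297 peaks, 1507 overlapped no gene of any kind, 599 overlapped an lncRNA gene and 89 overlapped an antigen receptor V segment, while 213 were over 100 kb from every gene in the annotation. A further check on position found 153 of them in 3 deserts that are V segment arrays of antigen receptors. Their median length was 215 bp, beside 216 bp for all peaks.

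Where sequence could be read, it was that of the start windows of noncoding genes, from 250 bases before to 50 after the annotated start. Such windows of 40 noncoding genes were covered in part by 41 desert peaks. In the comparison of KO with P915H described further on, 1 of these 41 peaks was higher in KO, as were 6.55% of all peaks, and 6 were lower, as were 8.97% of all peaks. The stretch shared by peak and window is shown for the higher one and for the 4 lower ones with the smallest adjusted p, because these are the desert peaks that changed and whose letters are known. The sequences are RefSeq's for GRCm38.p6, read 5′ to 3′ on the strand of the gene, which is plus in all 5. They lie at chr13:97559752-97559956 (Gm5086), chr13:110568511-110568761 (Gm32990), chr9:61016819-61016978 (Gm5122), chr9:61056741-61056945 (Gm46116) and chr6:89140744-89140802 (Gm1965). Capitals mark matches, on either strand, to 6 short motifs of factors active in lymphocytes, which are AP-1 (TGANTCA), RUNX (TGTGGTT), E-box (CAGGTG), ETS (GAGGAAGT), OCT (ATGCAAAT) and T-box (AGGTGTGA), and overlapping matches were joined.
Gm5086: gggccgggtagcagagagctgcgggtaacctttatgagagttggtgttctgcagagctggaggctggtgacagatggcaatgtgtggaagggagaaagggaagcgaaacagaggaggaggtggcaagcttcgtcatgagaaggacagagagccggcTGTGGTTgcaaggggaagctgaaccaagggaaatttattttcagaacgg
Gm32990: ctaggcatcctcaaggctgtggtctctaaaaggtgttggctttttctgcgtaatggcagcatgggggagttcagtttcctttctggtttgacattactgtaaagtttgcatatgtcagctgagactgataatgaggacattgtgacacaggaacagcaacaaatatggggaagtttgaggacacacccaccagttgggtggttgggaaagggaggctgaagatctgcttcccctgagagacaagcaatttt
Gm5122: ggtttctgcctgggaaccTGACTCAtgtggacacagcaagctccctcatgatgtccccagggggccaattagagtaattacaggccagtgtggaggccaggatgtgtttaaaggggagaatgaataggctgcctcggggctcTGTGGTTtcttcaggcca
Gm46116: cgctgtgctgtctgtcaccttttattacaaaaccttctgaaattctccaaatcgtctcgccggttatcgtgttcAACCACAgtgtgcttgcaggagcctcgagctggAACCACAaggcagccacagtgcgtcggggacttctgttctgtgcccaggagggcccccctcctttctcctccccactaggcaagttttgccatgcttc
Gm1965: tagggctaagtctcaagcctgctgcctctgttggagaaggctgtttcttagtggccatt

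The RUNX motif occurred once each in the Gm5086 and Gm5122 stretches and at 2 places in that of Gm46116, the AP-1 motif occurred in that of Gm5122, and none of the 6 motifs was found in those of Gm32990 and Gm1965. Over the full 300-base windows, the RUNX motif was in 25.0% of the 40 windows and in 5.27% of all 32851 RefSeq start windows of that length. The ETS motif was in 12.5% against 3.20%, AP-1 in 12.5% against 7.81%, E-box in 17.5% against 20.2%, OCT in 2.50% against 1.74%, and T-box in none of the 40 against 1.28%. All start windows served as the reference, whether or not a peak lay there, so these shares describe letters and not binding.

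Values are log2 of accessibility on the CPM scale (relative to the total of reads in peaks), as deposited. The Gm32990 peak, in the desert between Plk2, a polo-like kinase gene, and Actbl2, an actin gene, had 3.81, 2.54 and 3.11 in KO, 4.68, 5.35 and 5.40 in P915H and 4.28, 4.88 and 4.26 in WT. All KO values were below all others. KO was lower than P915H by a log2 fold change of -1.99 ± 0.32 (SE of the fit, n = 3 per genotype, limma adjusted p = 0.00425). The Gm5086 peak, between Enc1 and Arhgef28, had 3.54, 3.16 and 3.16 in KO, 4.11, 4.36 and 4.31 in P915H and 3.99, 4.12 and 4.18 in WT. It fell by 0.97 on the log2 scale from P915H to KO (adjusted p = 0.00405). Two-sided limma tests adjusted over all 61540 peaks gave every adjusted p in the text. Gm5122 and Gm46116 lie in the desert between Uaca and Tle3, a corepressor gene of the Groucho family, and their peaks were lower in KO by -0.81 (adjusted p = 0.0136) and -0.62 (adjusted p = 0.0206). At Gm46116, KO values of 3.60, 3.29 and 3.45 overlapped WT values of 3.52, 3.76 and 3.49 and lay below the P915H values of 3.98, 4.05 and 4.17. The Gm1965 peak, between Tpra1 and the semaphorin receptor gene Plxna1, was the exception in direction, with 5.30, 5.22 and 5.35 in KO, 4.51, 4.78 and 4.82 in P915H and 5.17, 4.97 and 4.80 in WT, a log2 fold change of 0.58 ± 0.13 (adjusted p = 0.0167).

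Desert peaks were weaker than others. Their median mean value was 2.73 on the log2 scale, beside 3.12 for the 39491 autosomal peaks within a gene and 2.91 for the 18370 outside a gene but within 100 kb. Their spread within genotypes was wider, with a median residual SD of 0.286 against 0.217 for all peaks. Summed as CPM, they took 4.04% ± 0.28 (SD, n = 3) of all accessibility in KO, 3.81% ± 0.46 in P915H and 4.12% ± 0.56 in WT, so the genotypes differed by less than their SDs. A replicate effect had been removed from the deposited values, and SDs within a genotype therefore understate the spread.

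Among desert peaks called between KO and P915H, KO was lower more often than higher. A peak is called where the limma adjusted p is under 0.05. Of the 2297 desert peaks, 613 (26.7%) were called between KO and P915H, where 15.5% of all peaks were. KO was lower at 435 (18.9%), beside 8.97% of all peaks, and higher at 178 (7.75%), beside 6.55% of all peaks. Lower accessibility thus made up 71.0% of desert calls and 57.8% of all calls. The median log2 fold change was -0.10 over desert peaks and -0.01 over all peaks. The sign of the median depended on the genes counted, since over the 213 peaks more than 100 kb from every gene it was 0.17, with 14 higher and 33 lower calls. In this bulk measurement, fewer cells of a type and less accessibility per cell cannot be told apart. The number of desert calls depended on single samples. It was 235 without P915H replicate 2 (95 higher, 140 lower), 261 without KO replicate 3, 274 without KO replicate 2 and 311 without P915H replicate 3, while the shares of all peaks called then were 5.24%, 5.80%, 6.20% and 7.69%.

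Against WT, few or no desert peaks passed. Between KO and WT, 0 of the 2297 were called by limma, where 0.0195% of all peaks were (0.00487% higher and 0.0146% lower), although 681 (29.6%) had an unadjusted p under 0.05, beside 18.7% of all peaks. The median log2 fold change was -0.09 over desert peaks and 0.00 over all, and 0.024 over the 213 peaks far from every gene. Without KO replicate 1, 272 desert peaks were called, 259 of them lower in KO, beside 5.43% of all peaks called. Between P915H and WT, 4 were called, where 0.255% of all peaks were. P915H was higher at 1 (0.00325% of all peaks were higher) and lower at 3 (0.252% of all peaks were lower).

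The share of peaks lower in KO than in P915H was larger in every desert bin of distance than in the bins nearer to genes. It was 8.56% within genes, 6.20% up to 5 kb outside, 9.30% from 5 to 25 kb, 10.6% from 25 to 50 kb and 14.4% from 50 to 100 kb. Among desert peaks it was 17.9% from 100 to 200 kb, 20.8% from 200 to 300 kb, 18.2% from 300 to 500 kb and 21.8% beyond 500 kb. The share higher in KO followed no such course, with 6.24% within genes, 10.1% from 25 to 50 kb, 8.78% from 100 to 200 kb and 2.58% beyond 500 kb. The gap between desert and other peaks was present at each level compared. Among peaks with a mean log2 value below 2, 26.4% of desert peaks were lower in KO, beside 9.56% of peaks near genes and 11.5% within them. Between 3 and 4 these shares were 18.3%, 9.46% and 9.58%, and above 5 they were 7.17%, 6.06% and 4.34%. These bins were compared as descriptions, without a test.

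**Figure D1:**
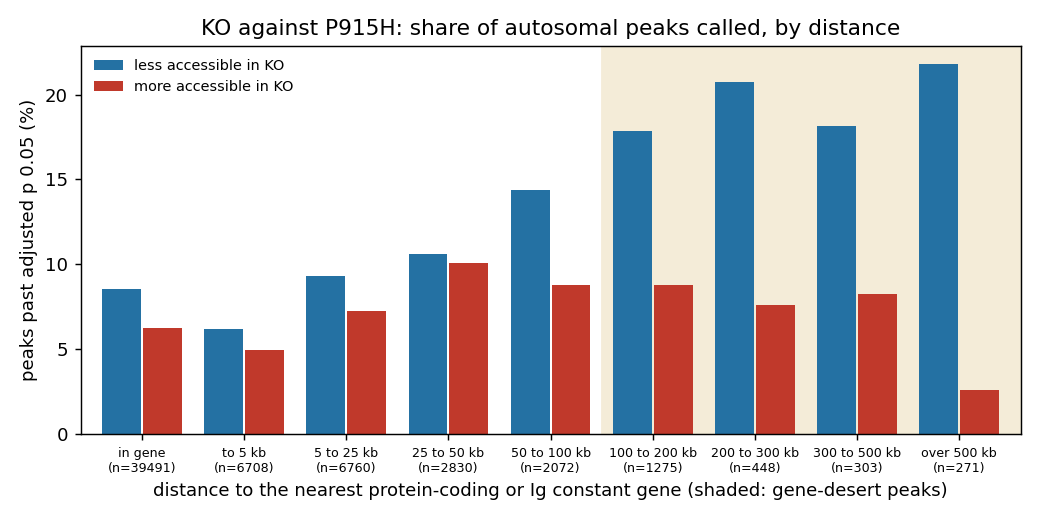
Share of autosomal peaks called between KO and P915H (percent, vertical axis), by distance to the nearest protein-coding or immunoglobulin constant gene (horizontal axis, with the number of peaks per bin). Blue bars are peaks lower in KO and red bars peaks higher in KO, and the shaded bins hold the desert peaks, where the blue bars lie between 17.9% and 21.8%.

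WT lay between KO and P915H at most called desert peaks. Of the 435 lower in KO, the WT mean lay between the others at 403, above both at 31 and below both at 1, and it was nearer to P915H at 385. The median levels of these peaks were 1.66 in KO, 2.55 in WT and 2.86 in P915H. The fold change exceeded 1 on the log2 scale at 284 of them and 2 at 27. Of the 178 higher in KO, WT lay between at 172 and was nearer to P915H at 84 and to KO at 94, with medians of 3.02 in KO, 2.57 in WT and 2.03 in P915H. These peaks were chosen for a difference between KO and P915H, and that choice by itself favours a WT mean between them. The counts of peaks with WT between are therefore not read as a graded effect of genotype. Both comparisons with WT share its samples, and the order is a description of levels.

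The labelled cell type was checked on marker genes. Of 5 B cell genes, 4 (Cd79b, Ms4a1, Pax5 and Ebf1) had peaks, whose summed CPM was 856 to 891 in KO, 934 to 985 in P915H and 929 to 933 in WT, and Cd79a had none. All 6 genes listed for age-associated B cells had peaks (387 to 396 CPM in KO, 352 to 376 in P915H, 381 to 393 in WT), among them Itgax and Tbx21. Most of the difference between KO and P915H in these sums lay at Zeb2, which had 19 of the 41 peaks. Its mean CPM was 142 (KO), 116 (P915H) and 129 (WT). Itgam was lower in KO, with 23.4 beside 27.8 in P915H. Itgax (50.2 and 48.6), Tbx21 (91.3 and 86.6), Fcrl5 (73.7 and 72.1) and Cxcr3 differed less than Zeb2. The sums are thus not read as a trend of the whole list. Of the other lineages, none of 5 neutrophil genes had a peak, and 4 of 5 macrophage and monocyte genes did (44.5 to 52.6 CPM in KO, 52.3 to 61.5 in P915H, 49.1 to 60.2 in WT, with 1 peak called in each direction between KO and P915H). Of 3 natural killer cell genes, 1 had a peak (6.57 to 8.47 CPM in KO, 6.89 to 7.45 in P915H, 6.83 to 9.51 in WT), as did 1 of 4 erythroid genes (22.6 to 26.7, 22.4 to 29.9 and 13.7 to 21.7), and neither was called. Peaks at Cr2 and Fcer2a, markers of follicular B cells, were called lower in KO than in P915H, with sums of 22.1 to 27.4 CPM in KO, 39.7 to 40.8 in P915H and 31.4 to 38.8 in WT. Of the 68 peaks at B cell genes, 4 were called higher in KO than in P915H and 12 lower. At genes of age-associated B cells it was 4 higher and 1 lower of 41, where 6.55% of all peaks were higher and 8.97% lower. The peaks at Cr2 and Fcer2a moved in the direction of most called desert peaks, while most calls at genes of age-associated B cells went the other way. The part of these markers in that result was not tested.

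A list of lymphoid regulator genes, nearly all of them transcription factors but with the RNA-binding proteins Zfp36l1 and Zfp36l2 among them, was used to describe deserts by their borders. Of its genes, 41 bordered 46 deserts that held 377 peaks. Between KO and P915H, 93 of these were lower in KO and 26 higher, 31.6% in all, beside 26.7% of all desert peaks and 15.5% of all peaks. Lower calls made up 78.2% of the calls here and 71.0% over all desert peaks. The list had a median log2 fold change of -0.24, beside -0.10 for all desert peaks and -0.01 for all peaks. By gene, 25 had only lower calls beside them, 4 only higher, 7 both and 5 none. The number of lower calls ranged from 28 to 109 with single samples left out and the median from -0.33 to -0.20. All 4 peaks of Mycn, a Myc family factor, were lower in KO, as were 5 of 7 at Zfp36l1, which encodes an RNA-binding protein of mRNA decay, and 4 of 7 at Nr4a3, an orphan nuclear receptor induced by antigen receptor signals. At Ebf1, a factor required for the B lineage, 3 of 13 were lower, with a median of -1.06. At Runx1 it was 3 of 13, at Ets1 3 of 14 and at Satb1, a chromatin organizer, 3 of 11, with none higher at these genes. Higher calls without lower ones were found at Jun, an AP-1 subunit (2 of 17), at Tcf4, an E protein (2 of 7), at Nfib (2 of 3) and at Tox (1 of 8). Of all peaks, 6.55% were higher and 8.97% lower, and of all desert peaks 7.75% and 18.9%. Counts of 1 or 2 calls are too small to give a gene a direction.

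The Myc desert was split by position. Myc drives growth and division, and the long gap between it and Gsdmc, a gasdermin gene, holds the lncRNA Pvt1 on the Myc side and a cluster of blood cell enhancers of Myc far downstream. Of its 28 peaks, 8 were higher in KO than in P915H and 4 lower, beside 6.55% and 8.97% of all peaks. Of the higher ones, 7 lay 114082 to 335300 bp from Myc, 4 of them over Pvt1, and the eighth lay at 964191 bp. The 4 lower ones lay at 1345224 to 1677140 bp, at the Gsdmc end. The named peak over Pvt1 (chr15:62145258-62145461) had 4.40, 4.57 and 4.71 in KO, 3.02, 3.29 and 2.92 in P915H and 3.94, 3.50 and 3.73 in WT. The 3 genotypes did not overlap, with KO highest and P915H lowest, and KO exceeded P915H by 1.48 ± 0.17 on the log2 scale (adjusted p = 0.00122). At the far end, the peak at chr15:63616879-63617111 was lower in KO by -1.45 ± 0.23 (adjusted p = 0.0038). The number of higher calls in this desert fell to 3 and that of lower calls to 2 in the least favourable omission of a sample.

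The Foxo1 desert showed the reverse arrangement along its length. Foxo1 is a transcription factor of B cell development and quiescence, and 29 peaks lay between it and Cog6, a Golgi gene. The 10 that were lower in KO than in P915H lay 129180 to 288803 bp from Foxo1, and 5 of them sat within 217554 to 223011 bp. The 3 that were higher in KO lay at 390466 to 490578 bp. The named peak (chr3:52567663-52567855) had 1.82, 1.35 and 1.48 in KO, 2.96, 2.97 and 3.03 in P915H and 2.67, 3.13 and 2.93 in WT. KO values were below all others, and WT overlapped P915H. The log2 fold change between KO and P915H was -1.43 ± 0.20 (adjusted p = 0.00276). With single samples left out, lower calls in this desert numbered 3 to 12 and higher calls 1 to 3, so the far part of the arrangement rests on few peaks. Of all peaks, 8.97% were lower in KO and 6.55% higher.

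**Figure D2:**
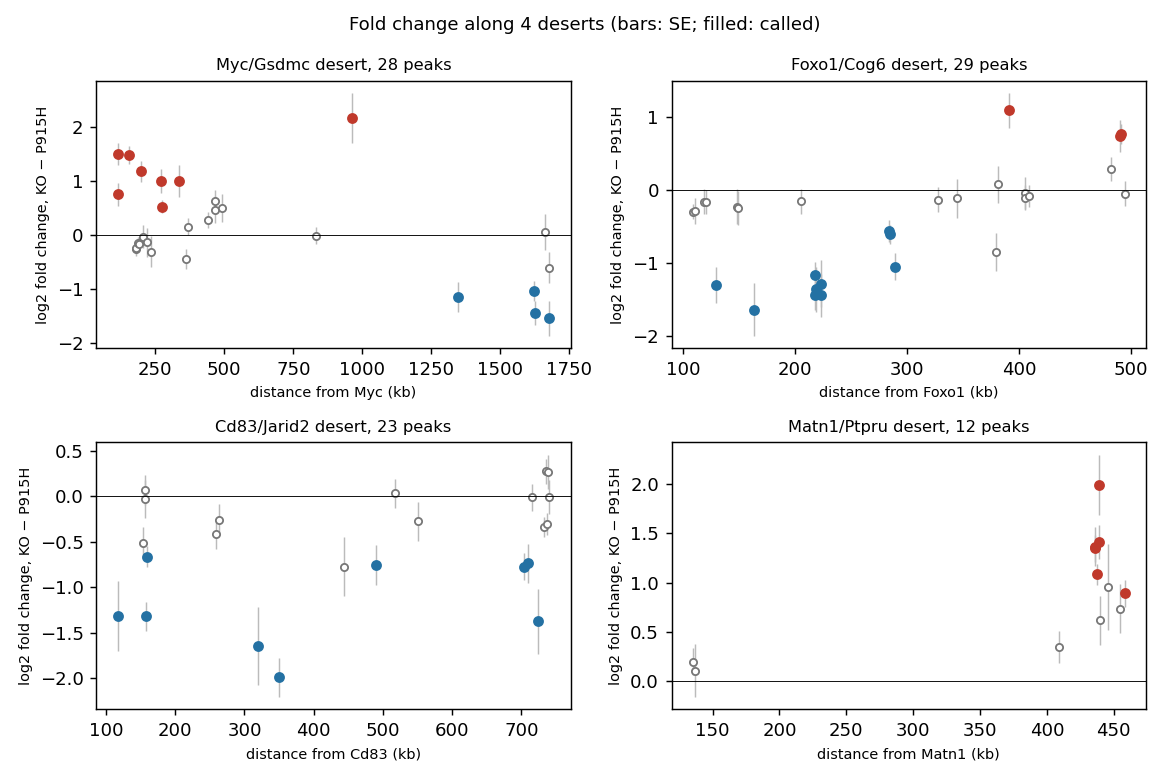
Log2 fold change between KO and P915H (vertical axis, with SE) against distance from the bordering gene in kb (horizontal axis) for the peaks of 4 deserts. Filled points are called, red for higher and blue for lower in KO; in the Myc desert red points lie on the Myc side and blue ones at the far end, and in the Foxo1 desert blue points lie nearer to Foxo1 than red ones.

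Several other deserts held calls in 1 direction, where 8.97% of all peaks were lower in KO than in P915H and 6.55% higher. Mef2c is a transcription factor of B cell survival and activation, and 11 of the 22 peaks between Cetn3, a centrin gene, and Mef2c were lower in KO than in P915H and none higher, with fold changes from -1.70 to -0.46 and distances from Mef2c between 428266 and 610098 bp. The mean over the 22 peaks was 2.53, 2.20 and 2.36 in KO, 2.89, 3.11 and 3.19 in P915H and 2.93, 3.04 and 2.80 in WT, so all KO samples were below the rest. Between Cd83, an activation marker of B cells, and Jarid2, a cofactor of Polycomb, 9 of 23 were lower and none higher. The strongest of these by p (chr13:44153230-44153437) had 1.78, 1.24 and 1.47 in KO, 3.36, 3.43 and 3.67 in P915H and 2.56, 3.04 and 2.57 in WT, with WT between the others without overlap. It differed by -1.99 ± 0.22 (adjusted p = 0.000994). Between Gadd45g, a stress-response gene, and Diras2, 8 of 19 were lower, with a mean over the desert of 2.65, 2.17 and 2.37 in KO, 3.03, 3.23 and 3.16 in P915H and 2.72, 2.99 and 2.86 in WT. In the desert between the adhesion receptor genes Adgrl2 and Adgrl4, 7 of 8 were lower. With single samples left out, lower calls numbered 4 to 11 in the Mef2c desert, 3 to 10 in that of Cd83, 3 to 11 in that of Gadd45g and 4 to 8 in that of Adgrl2. Of 71 deserts with 3 or more calls, 39 held lower calls alone, 12 higher calls alone and 20 both.

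**Figure D3:**
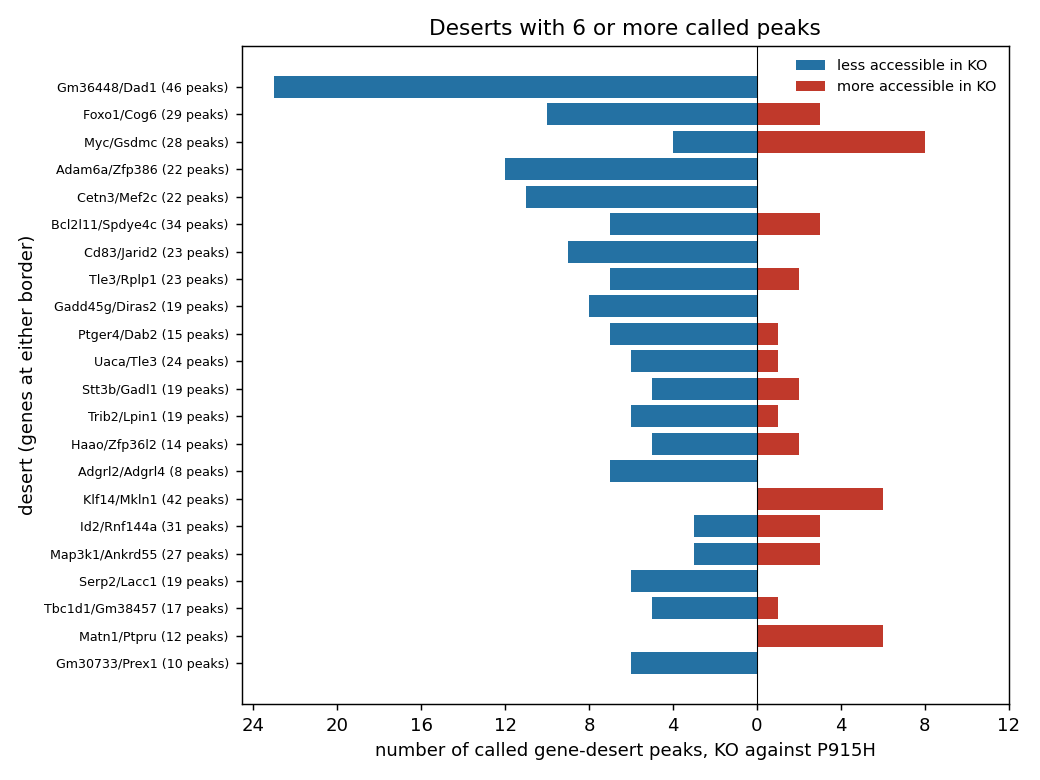
Number of called peaks (horizontal axis) in deserts with 6 or more calls between KO and P915H, 2 of which are not shown, named by the bordering genes (vertical axis, with the number of desert peaks). Blue bars to the left count peaks lower in KO and red bars to the right peaks higher in KO; Gm36448/Dad1, the T cell receptor alpha V array, is longest with 23 lower peaks, and Klf14/Mkln1 and Matn1/Ptpru hold 6 higher peaks each.

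The antigen receptor arrays are deserts by the rule, since V segments are not annotated as protein-coding genes. V segments are the gene pieces that are joined to J pieces, in some chains with D pieces between, when lymphocytes assemble receptors. In the heavy chain array, between Adam6a and Zfp386, 12 of 22 peaks were lower in KO than in P915H and none higher. Its mean was 1.95, 1.91 and 1.78 in KO, 2.64, 2.78 and 2.58 in P915H and 2.46, 2.36 and 2.69 in WT, with KO below all others and WT overlapping P915H. In the T cell receptor alpha array, between Gm36448 and Dad1, 23 of 46 were lower and none higher, with a mean of 2.11, 1.84 and 1.75 in KO, 2.47, 2.68 and 2.65 in P915H and 2.39, 2.46 and 2.58 in WT. The smallest adjusted p there was at a peak over Trav13-2 (chr14:53634687-53634899, -1.62 ± 0.21, adjusted p = 0.0020). V segments of a family resemble each other, and counts at near-identical copies are uncertain. Of 6 T cell genes, Cd4, Cd8a and Bcl11b had no peak, and the peaks at Cd3d, Cd3e and Cd3g summed to 61.0 to 68.7 CPM in KO, 56.4 to 65.6 in P915H and 61.6 to 67.2 in WT, with 2 of the 3 called higher in KO. Most of this sum came from Cd3d, whose mean CPM was 57.1 (KO), 58.6 (P915H) and 59.9 (WT). By the same order of genotypes, Cd3e had 3.96, 1.08 and 2.36, and Cd3g had 4.63, 1.12 and 2.43. The sums therefore hide the difference at Cd3e and Cd3g. What part the T cell genes have in the result was not tested. Single samples moved the counts, to 3 to 13 lower calls in the heavy chain array and 10 to 23 in the alpha array. Of all peaks, 8.97% were lower in KO than in P915H and 6.55% higher. Without all 153 desert peaks in V segment arrays, 560 of 2144 (26.1%) were called, 386 lower and 174 higher.

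Deserts with higher calls in KO alone were fewer. Of all peaks, 6.55% were higher in KO than in P915H and 8.97% lower. Between Matn1, a cartilage matrix gene, and Ptpru, a receptor tyrosine phosphatase gene, 6 of 12 peaks were higher in KO than in P915H and none lower. They lay within 435712 to 458012 bp of Matn1, 5 of them within 435712 to 438928 bp. The mean over the 12 was 3.31, 3.44 and 3.33 in KO, 2.45, 2.37 and 2.51 in P915H and 2.98, 2.93 and 2.90 in WT, so the genotypes did not overlap. With single samples left out, higher calls numbered 6 to 7. Between Ly86, which encodes the partner of RP105, a Toll-like receptor homologue of B cells, and Rreb1, a zinc-finger factor gene, 5 of 16 were higher, 3 of them over the lncRNA gene Lncbate6. In the desert between Ifng, which encodes interferon gamma, and the kinase gene Dyrk2, 4 of 10 were higher and 1 lower, the higher ones 109068 to 127448 bp from Ifng and 2 of them over the lncRNA gene Ifngas1. The larger of these (chr10:118555275-118555655) had 2.95, 1.89 and 2.52 in KO, -0.52, -0.07 and -0.62 in P915H and 0.03, 0.63 and 0.55 in WT. KO was above all others, and the difference from P915H was 2.86 ± 0.40 (adjusted p = 0.00269). Negative values mean under 1 CPM.

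Genes for surface, survival and signalling proteins of B cells gave a mixed picture. Of such a list, 23 genes bordered 23 deserts with 223 peaks, of which 36 were lower in KO than in P915H and 15 higher (22.9%, beside 26.7% of all desert peaks and 15.5% of all peaks), with a median of -0.13. With single samples left out there were 14 to 45 lower and 5 to 15 higher calls. Of all peaks, 8.97% were lower and 6.55% higher. Ptger4, a prostaglandin E2 receptor gene, had 7 lower and 1 higher of 15 peaks, while Cdk6, a cell cycle kinase gene, had 3 of 4 higher and Cxcr4, a chemokine receptor gene, 3 of 10 higher. In the desert between Bcl2l11, which encodes the cell death protein Bim, and Spdye4c, 7 of 34 were lower and 3 higher (2 to 7 and 0 to 3 with single samples left out). All 3 higher ones lay over Morrbid, an lncRNA known to restrain Bcl2l11 in myeloid cells, where 3 of 25 peaks were also lower. In the desert between Tgfbr2, the type II receptor gene for TGF-beta, and Rbms3, a named peak (chr9:116376096-116376305) had 4.26, 3.84 and 4.10 in KO, 2.54, 2.92 and 2.64 in P915H and 3.53, 3.57 and 3.59 in WT. Genotypes did not overlap there, and KO exceeded P915H by 1.37 ± 0.17 (adjusted p = 0.00155).

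Among the other peaks named beside listed genes, the one between Mpdz and Nfib, a factor of the NFI family, had 2.82, 2.76 and 2.84 in KO, 0.41, 0.42 and 0.94 in P915H and 1.87, 1.92 and 1.32 in WT. KO was highest and P915H lowest, with a difference of 2.22 ± 0.27 (adjusted p = 0.00151). The peak 118619 bp from Klf4, a factor of lymphocyte quiescence, had 1.43, 1.45 and 1.42 in KO, 2.88, 2.76 and 2.96 in P915H and 2.66, 2.75 and 2.59 in WT. KO was below both other groups, by -1.43 ± 0.18 against P915H (adjusted p = 0.00164). Between Dusp10, a phosphatase gene of stress kinases, and Hlx, a homeobox factor gene, the peak at 248841 bp from Hlx had 2.37, 1.57 and 1.62 in KO, 3.47, 3.74 and 3.62 in P915H and 3.02, 3.55 and 3.62 in WT. It differed by -1.75 ± 0.25 (adjusted p = 0.00292), and WT overlapped P915H.

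**Figure D4:**
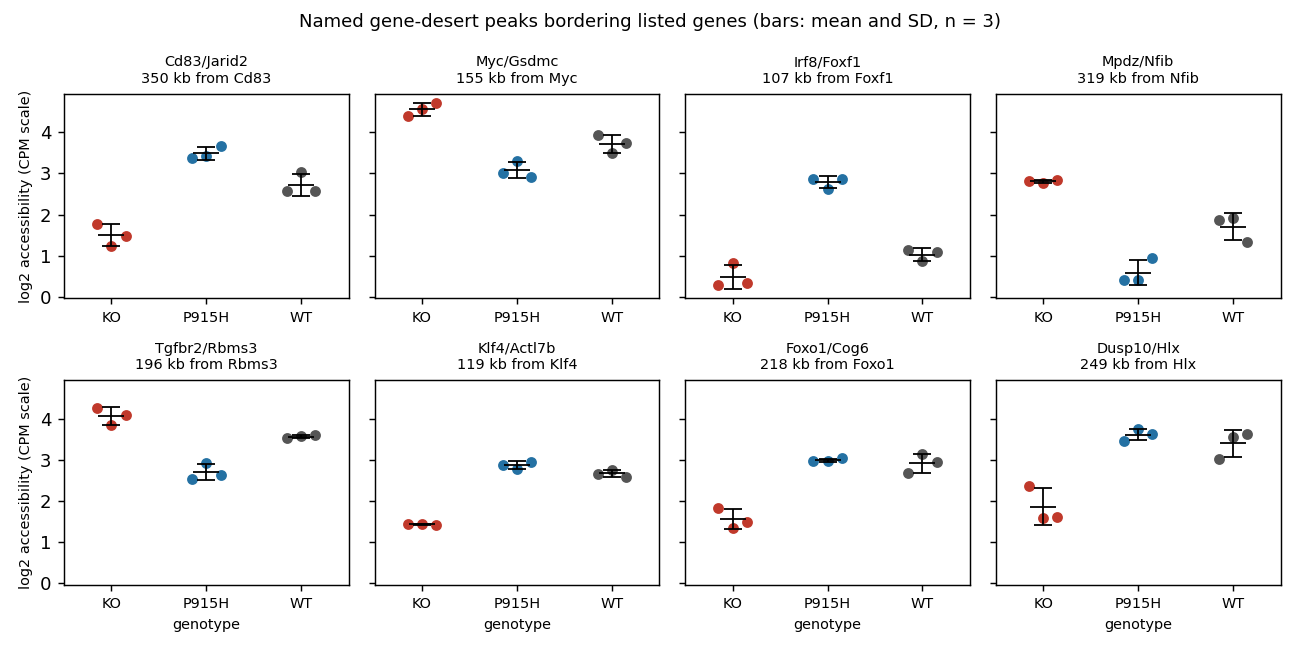
Log2 accessibility (vertical axis) by genotype (horizontal axis) of 8 desert peaks named beside listed genes; points are samples and bars the mean and SD (n = 3). KO is lowest in 5 panels and highest in the panels of Myc, Nfib and Tgfbr2.

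Long noncoding RNA genes in the deserts varied. Peaks over Lncpint, a p53-induced lncRNA between Klf14 and Mkln1, numbered 29, of which 5 were higher in KO than in P915H and none lower, while their median was 0.00. Over Pvt1, 4 of 11 were higher and none lower, while the median of the 11 was -0.13. Over A930011G23Rik, between Rasgef1b and Vamp9, 4 of 12 were lower, and over Gm30382, in the Adgrl2 desert, 6 of 6 were lower with a median of -1.40. Of all peaks, 6.55% were higher and 8.97% lower. In all, 162 of the 599 peaks over lncRNA genes were called (27.0%), as were 393 of the 1507 over no gene (26.1%), where 15.5% of all peaks were. Both shares were near the 26.7% of all desert peaks, so peaks over lncRNA genes did not stand out within the deserts.

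The smallest p among desert peaks between KO and P915H belonged to a peak over the lncRNA gene Gm32543, 174150 bp from Cited2, a transcriptional coregulator gene (chr10:17548861-17549078). It had 5.37, 5.23 and 5.25 in KO, 3.72, 3.94 and 3.88 in P915H and 4.73, 4.65 and 4.69 in WT. The 3 genotypes were apart, with a difference of 1.44 ± 0.12 between KO and P915H (adjusted p = 0.000328). P915H was also lower than WT, by -0.85 ± 0.12 (adjusted p = 0.0209). On the lower side, a peak between Gm30733 and Prex1, a Rac exchange factor gene, had 3.25, 3.10 and 3.10 in KO, 4.24, 4.39 and 4.39 in P915H and 4.00, 4.00 and 4.00 in WT, a difference of -1.19 ± 0.13 (adjusted p = 0.000902).

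The largest fold changes came from peaks with values near or under 1 CPM in 1 genotype. Between Gm4791 and Cadm1, an adhesion gene, values were 1.95, 3.35 and 0.20 in KO, -3.41, -6.89 and -1.65 in P915H and -0.03, 2.04 and -0.03 in WT, and the fold change of 5.82 had an SE of 1.36 (adjusted p = 0.0185). This call was kept in 7 of the 9 fits that left out a sample. Between Jag1, a Notch ligand gene, and Btbd3, values were 2.14, 3.07 and 2.27 in KO, -0.21, -1.11 and -0.79 in P915H and 1.29, 1.26 and 1.73 in WT, with no overlap and a fold change of 3.20 ± 0.38 (adjusted p = 0.00147). The largest decrease lay between Stt3b and Gadl1, with -0.49, -2.09 and -1.39 in KO, 1.37, 2.10 and 2.11 in P915H and 0.95, 1.82 and 1.11 in WT, and a fold change of -3.18 ± 0.51 (adjusted p = 0.00415). The other named peaks of this kind had fold changes of 2.86 to 3.37 upward, between Gm6569 and Adgrb1, Pcdh17 and Diaph3, and Mmadhc and Rnd3, and of -3.03 to -2.47 downward, at 1700025G04Rik/Tsen15, Zc3h12c/AI593442, Dusp10/Hlx, Bbs9/Bmper and Kcnt2/Cdc73.

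P915H differed from WT at the 4 desert peaks counted above, and the KO values are given beside them, although both comparisons with P915H share its samples. The 1 higher peak lay between Irf8, a factor of B cells and myeloid cells, and Foxf1, with 0.29, 0.81 and 0.34 in KO, 2.86, 2.61 and 2.87 in P915H and 1.14, 0.86 and 1.08 in WT. P915H stood above both other groups, by 1.75 ± 0.27 over WT (adjusted p = 0.0352), and KO was -2.30 ± 0.27 below P915H (adjusted p = 0.00132). The Ly86 peak over Lncbate6 (chr13:37542831-37543048) had 3.82, 4.13 and 3.93 in KO, 2.16, 1.78 and 2.28 in P915H and 3.31, 3.38 and 3.09 in WT. P915H was lower than WT by -1.19 ± 0.19 (adjusted p = 0.037). Besides the Cited2 peak, the fourth lay between 9530057J20Rik and Gm15319, with 6.997, 7.12 and 7.19 in KO, 5.83, 5.80 and 5.97 in P915H and 6.75, 6.67 and 6.42 in WT, a difference of -0.74 ± 0.11 (adjusted p = 0.026). These 4 calls were kept in 2 or 3 of the 9 fits that left out a sample, with adjusted p up to 0.357.

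The strongest desert peaks followed a pattern over samples that cut across genotypes. The strongest of all (chr2:95156307-95156511, between Api5 and Lrrc4c, a synaptic adhesion gene) had 9.35, 10.07 and 9.80 in KO, 9.66, 9.38 and 8.52 in P915H and 9.42, 8.98 and 10.11 in WT. P915H replicate 3 was lowest and WT replicate 3 highest, and the genotypes overlapped. After its values were seen, peaks with a Pearson r above 0.95 with it over the 9 samples were counted. There were 240 among the desert peaks (10.4%), in 64 deserts, against 184 of those near genes (1.00%) and 105 of those within genes (0.266%). Of the 240, 228 (95.0%) had another such peak within 5 kb, while 52.5% of the other desert peaks had a desert peak that near. Their median level was 4.76 against 2.54 for the other 2057, and their median residual SD 0.675 against 0.266. Since they were chosen for a pattern that varies within genotypes, no count of calls or fold change among them is read as a result. Whether their reads have a single place of origin was not tested.

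Leaving out such peaks uses the same 9 values as the comparison, so the following is a description. Between KO and P915H, 29.8% of the other 2057 desert peaks were called, with a median log2 fold change of -0.18, beside 15.8% and -0.01 for all autosomal peaks without such peaks. In the sums, without the 240 desert peaks took 2.48% ± 0.08 of accessibility in KO, 2.68% ± 0.10 in P915H and 2.71% ± 0.08 in WT. Among the 30 strongest desert peaks, 11 on 6 chromosomes had this pattern. A group of 16 on 11 chromosomes had another, with the median deviation of each KO sample below those of all P915H and WT samples. Fold changes between KO and P915H were -0.37 to -0.20, and 6 of the 16 were called lower in KO, where 8.97% of all peaks were. Both groups were formed by correlation over the same 9 values, so shape, fold changes and calls within them are not read as a result. The strongest of the 16, between Hace1 and Grik2, lies among peaks with the pattern of the strongest peak (chr10:47440219-47442623).

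**Figure D5:**
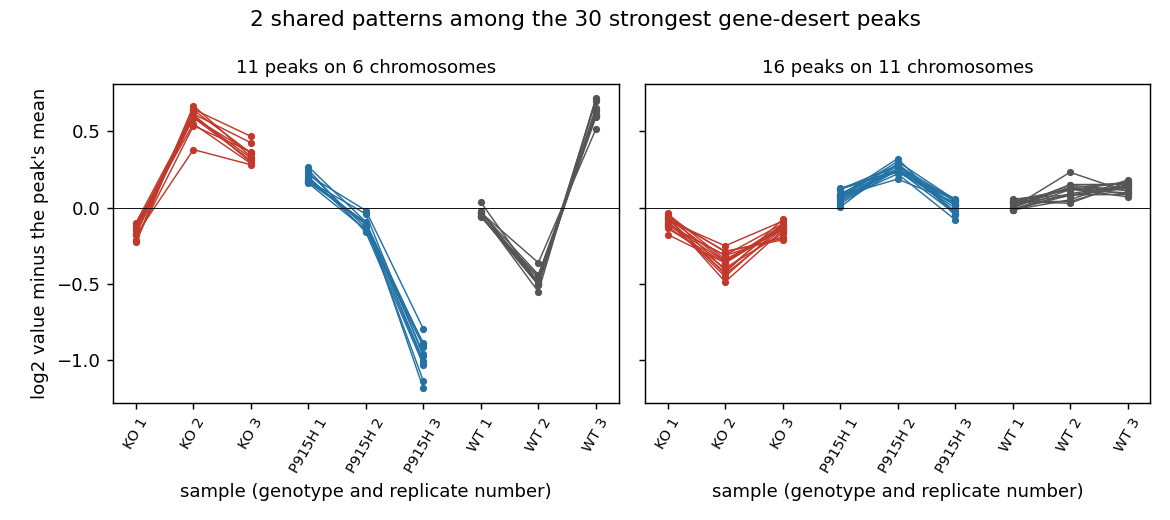
Log2 value minus the peak's mean over samples (vertical axis) in each of the 9 samples (horizontal axis) for the 2 larger groups among the 30 strongest desert peaks, 1 line per peak and genotype. The 11 peaks on the left are lowest in P915H 3 and highest in WT 3 or KO 2, and the 16 on the right are lowest in KO 2.

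Deserts beside genes of another lineage were also described. This list overlaps that of lymphoid regulators, since the desert between Satb1 and Kcnh8 counts in both. Genes of neurons and cell adhesion bordered 47 deserts with 165 peaks, of which 19 were lower and 13 higher in KO than in P915H, with a median of 0.36. The calls made up 19.4%, beside 26.7% of all desert peaks and 15.5% of all peaks. Of the 165, 70 had the pattern of the strongest peak, and without them, as a description, the median was -0.01 and 33.7% of 95 were called. That share stood beside 29.8% of all desert peaks without the pattern and 31.6% at lymphoid regulators, where no peak had it. None of the 240 desert peaks with the pattern was called between KO and P915H, so leaving them out could only raise a share. The lists are therefore not ranked by these shares. Leaving out single samples moved the median of the 165 from -0.04 to 0.60. All 4 peaks beside Kcnt2, a potassium channel gene, were lower in KO, where 8.97% of all peaks were. The one named above, between Kcnt2 and Cdc73, lay 2281961 bp from Kcnt2 and nearer to Cdc73, at 707081 bp. Of 5 peaks beside Grik3, a glutamate receptor gene, 4 were higher, where 6.55% of all peaks were. These 4 higher peaks lay over the lncRNA gene Gm32611, in the desert whose other border is Zc3h12a. The farthest desert peak of all, 1992704 bp from the cadherin gene Cdh20, had 4.19, 4.61 and 4.53 in KO, 4.14, 3.99 and 3.07 in P915H and 3.91, 3.63 and 4.64 in WT, with overlapping genotypes.

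Single peaks on either side of the 100 kb threshold are given as examples. The nearest peak inside it lay 100061 bp from Ubl3, with 2.86, 2.92 and 3.01 in KO, 2.44, 2.44 and 2.01 in P915H and 2.58, 2.52 and 2.86 in WT, and its KO values lay above its P915H values. The nearest outside lay 99842 bp from Pabpc2, with 2.85, 2.78 and 2.51 in KO, 2.63, 2.87 and 2.88 in P915H and 2.84, 2.66 and 2.92 in WT, and its genotypes overlapped. Neither was called between KO and P915H (limma adjusted p = 0.052 and 0.829). Called peaks were present on both sides, as at 100173 bp from Unc5b (-1.04, adjusted p = 0.0395) and at 99714 bp from Mib1 (-0.86, adjusted p = 0.00577). Single peaks at different loci cannot show whether anything changes at the threshold, and no conclusion is drawn from them.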

How the data were processed

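The deposited table holds log2 values of accessibility for 61540 peaks in 9 samples, made by the authors, with peak positions in a companion table. Build mm10 and, with no roles, Bowtie2 2.3.3, Trim Galore 0.6.5, MACS2, Picard 2.18.12, limma and SAMtools are named per the submitters' processing notes. Their settings, the normalization and any pooling before peak calling are not stated in the sources used here. Antilogs in a sample sum to 0.987 to 1.01 times the nominal CPM total, so depth is unknown and no counting interval is given. No peak was filtered and no pseudocount added. At every peak the mean over genotypes was equal for replicate numbers 1, 2 and 3, so a replicate effect had been removed.

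All peaks were fitted together in limma 3.58.1 (R 4.3.3) with genotype and replicate number as terms, an intensity trend and 4 residual degrees of freedom. The term is needed because the removed effect takes degrees of freedom from the values. It does not rest on pairing, which cannot be checked, since deviations of same-numbered samples have a median r of -0.546 by construction, against 0.306 for other numbers. The 3 comparisons of genotypes were tested on both sides at a threshold of 0.05 after Benjamini-Hochberg adjustment over the 61540 peaks, and the code was tested on simulated data. Distances came from the RefSeq gene table of GRCm38.p6. The peaks and deserts named were chosen by rule, as those with the largest fold change or smallest p among called peaks (1 per desert for the former), those beside listed genes, the 5 strongest, the 5 farthest, the 5 on each side of the distance threshold and the deserts with most peaks or calls; further deserts, lncRNA genes and start windows were chosen after their values were seen. The members and lists were chosen with earlier results of these data known. Some genes and deserts that the rules name are not reported here. Alternatives covered the replicate term, normalization, a low-value filter, the trend, sample weights, the samples fitted, the thresholds of p and distance, the genes counted and each sample left out. Further steps used NumPy 2.4.6, pandas 2.3.3 and matplotlib 3.10.9 under Python 3.11.15. Start windows came from the RefSeq promoter table, and motifs of 10 or more letters and peaks elsewhere were not searched.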

Additional observations from a re-analysis of the deposited data

How the results depend on the processing

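Between KO and P915H, the 613 desert calls numbered 938 without the replicate block (no pairing of the numbers is implied), 549 to 814 under quantile normalization, centring on medians, a filter on low values, no intensity trend, sample weights, the 2 groups alone and an adjusted p under 0.1, and 235 to 671 with single samples left out. Other distances gave 1093 calls over 50 kb, 273 over 200 kb and 47 when counted from all genes, and the median then was 0.17 in the last case. Without peaks like the strongest the median was -0.18. Single samples moved the median between -0.14 and -0.07. Between KO and WT, 0 calls became 437 without the replicate block, 58 with quantile normalization, 56 with centring on medians, 136 with sample weights, 238 at an adjusted p under 0.1, 1 over 50 kb and 0 to 272 with single samples left out. The median of -0.09 became 0.024 counted from all genes, -0.15 without peaks like the strongest and -0.161 to -0.089 with single samples left out. Between P915H and WT, 4 calls became 52 without the replicate block, 8 with centring, 1 without the trend, 31 with sample weights, 0 with the 2 groups alone, 15 at an adjusted p under 0.1, 13 over 50 kb, 0 over 200 kb, 0 counted from all genes and 0 to 4 with single samples left out. The median of -0.01 was -0.10 counted from all genes and -0.051 to 0.051 with single samples left out. Desert peaks took 3.99% of accessibility over all samples, 6.75% over 50 kb and 2.33% over 200 kb. The cause of these changes was not tested, beyond the different peaks that another distance admits. The omissions of the antigen receptor deserts and of peaks like the strongest were chosen after seeing the data. Of 27 named peak results under 12 settings each, 284 kept their call, 40 lost it and 0 reversed. Depth is unknown, so precision rests on 3 samples per genotype.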

Other observations

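On the sex chromosomes, which the rule leaves out, 138 peaks lay over 100 kb from a coding gene, 88 on X and 50 on Y. Between KO and P915H, 15 of those on X were higher in KO and 3 lower, and 11 of those on Y were higher and 0 lower by limma at an adjusted p under 0.05, where 6.55% of all peaks were higher and 8.97% lower. Between P915H and WT, 2 on X were lower in P915H, and none of the 138 was called between KO and WT.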
